A study of Mus musculus with 7 samples.

Results

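The transient receptor potential canonical (TRPC) channels and the machinery of store-operated calcium entry were examined by RNA-Seq in mouse knees with experimentally induced osteoarthritis (OA). The genes were the rows of the gene count table named exactly Trpc1, Trpc6, Stim1, Stim2, Orai1, Orai2, Orai3 or Saraf, 8 of 55401 genes, and all 8 were among the 16429 genes that passed the filter on low counts (CPM, the count scaled by library size, above 1 in no fewer than 2 samples). The question was whether the deletion of Trpc1 was accompanied by a higher level of another channel gene.

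Trpc1-/- mice carried the Trpc1tm1Lbi allele, which lacks exon 8, on the C57BL/6J background, and the WT controls were matched for age and sex and came from the same breeding colony. All were males that were 10 weeks old when destabilization of the medial meniscus (DMM) was performed on the right knee, and tissue was collected 2 weeks later. The labels name cartilage of the femoral head and tibial plateau, the methods add subchondral bone, and by the methods each sample pooled 2 to 3 knees. Each label holds a single mouse number, and how it relates to the pooling is not stated. By the labels there were 4 WT and 3 Trpc1-/- samples, whereas the methods state the opposite numbers, and the labels were used. No sham-operated knee was analysed here, so each value describes a knee after DMM. Total counts were 52142451, 99831099, 116815517 and 75284143 for WT replicates 1 to 4 and 118254070, 94972137 and 106517535 for Trpc1-/- replicates 1 to 3. A signal of 3 counts, taken as the floor of detection, corresponded to between 0.0254 and 0.0575 CPM and covers counting error only.

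WT replicate 1 stood apart from the other samples. Its log2 CPM had a mean correlation across the tested genes of 0.947 with the other samples, compared with 0.973 to 0.98 for each of the other samples, and it had the lowest total count. Genes are not independent replicates, so these correlations only describe the samples. Results for the 8 genes that rest on this sample are given with and without it.

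The labelled tissue was checked with chondrocyte markers. Acan, the core protein of the main cartilage proteoglycan, was at 636, 592, 580 and 705 CPM in WT replicates 1 to 4 and at 355, 675 and 379 CPM in Trpc1-/- replicates 1 to 3. Mean CPM of Col2a1, the type II collagen gene, was 2980 ± 248 for WT (SD, n = 4) against 2140 ± 985 for Trpc1-/- (SD, n = 3), and that of Sox9, the transcription factor of the chondrocyte lineage, was 17.1 ± 5.74 against 12.7 ± 3.15, or 14.3 ± 0.859 for WT without replicate 1 (SD, n = 3). All 10 chondrocyte markers passed the filter on low counts. Marrow and blood markers were also abundant, with 8 erythroid genes whose summed CPM was 18700 ± 4740 for WT (SD, n = 4) against 30800 ± 5120 for Trpc1-/- (SD, n = 3), while the chondrocyte markers summed to 5850 ± 110 and 4240 ± 1570. The channel genes were therefore measured in a mixture of cartilage, bone and marrow cells.

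Store-operated calcium entry refills the endoplasmic reticulum (ER) after calcium has been released from it. STIM proteins sense the fall of calcium in the ER and open ORAI channels in the plasma membrane, TRPC1 can join these complexes as a less selective cation channel, and SARAF ends the entry by acting on STIM1. In chondrocytes, calcium entry follows mechanical load and growth factor signals.

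Trpc1, the gene targeted in the mice (ENSMUSG00000032839), lies on the minus strand of GRCm38 at chr9:95705082-95750375, with no annotated gene overlapping it and no stretch of 75 bases of its transcripts shared with another gene. The exon that carries the number 8 depends on the transcript. In Trpc1-204, with 13 exons, it is chr9:95717520-95717659, a coding exon of 140 bases that makes up 3.07% of the transcript. Without it the reading frame would stop after 450 codons instead of 809, because 140 is not a multiple of 3. In Trpc1-201, with 12 exons, that exon is number 7, and exon 8 is chr9:95716083-95716226, a coding exon of 144 bases that makes up 4.95% of the transcript. Its loss would keep the frame, with 727 codons instead of 775. The methods describe a premature stop codon for the allele. Both exons are printed because they define what the deletion can remove, each with 20 bases of the neighbouring exons in lower case and the exon itself in capitals, 5′ to 3′ in the direction of the transcript:
Trpc1-204 exon 8: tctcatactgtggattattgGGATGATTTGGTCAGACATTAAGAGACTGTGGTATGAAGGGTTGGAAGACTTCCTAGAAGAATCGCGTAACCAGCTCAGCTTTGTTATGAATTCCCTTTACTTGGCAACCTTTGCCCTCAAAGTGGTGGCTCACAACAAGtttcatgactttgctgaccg
Trpc1-201 exon 8: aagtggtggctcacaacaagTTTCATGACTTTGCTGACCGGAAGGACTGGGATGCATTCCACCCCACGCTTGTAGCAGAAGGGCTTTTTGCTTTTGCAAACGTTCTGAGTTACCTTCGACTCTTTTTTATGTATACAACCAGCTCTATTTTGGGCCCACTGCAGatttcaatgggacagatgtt
The deposited table has 1 count for the gene as a whole and none for single exons, so which of them is missing was not tested.

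**Figure D1:**
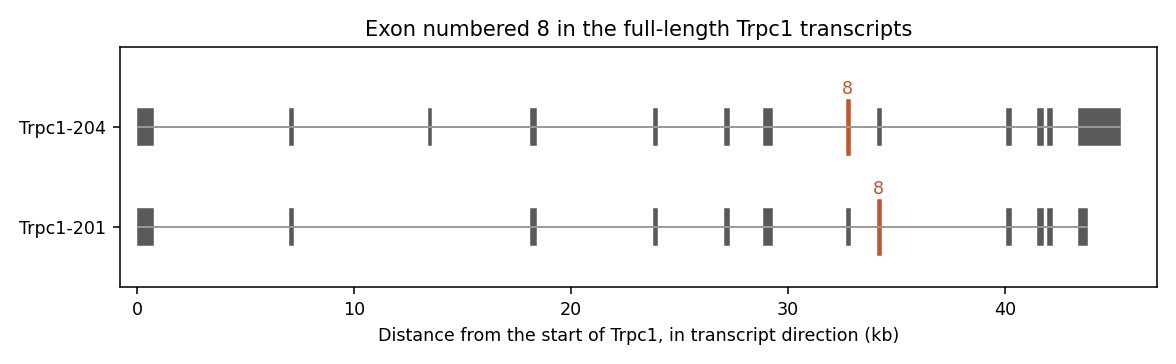
Exons (boxes) of the full-length Trpc1 transcripts along the gene, by distance from the gene start in kb. The exon numbered 8 (tall, orange) is the 140-base exon in Trpc1-204 and the next, 144-base exon in Trpc1-201.

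The counts of Trpc1 were 229, 481, 586 and 340 for WT replicates 1 to 4 against 410, 352 and 297 for Trpc1-/- replicates 1 to 3, which was 4.83, 4.55, 4.77 and 4.33 CPM against 3.35, 3.79 and 3.04 CPM after TMM normalization. All Trpc1-/- values were under all WT values, and transcripts of the gene were present in every Trpc1-/- sample at a mean of 73.5% of the WT mean. The logFC (log2, Trpc1-/- against WT) was −0.44 (SE 0.13, 95% interval −0.74 to −0.15, adjusted p = 0.407 by the quasi-likelihood test of edgeR). Over all tested genes, edgeR called 0 of 16429 genes at an adjusted p under 0.05 (0%), and 1643 genes (10%) had an unadjusted p under 0.05. Groups that did not overlap with Trpc1-/- lower were found for 1 of the 8 genes, Trpc1, against 6.42% of all tested genes. DESeq2, the tool of the study, called 294 genes (1.79%), and none of the 8 genes with default settings, where Trpc1 had an adjusted p of 0.05001, just above the threshold. With DESeq2's independent filtering tuned to 0.05, a setting chosen after seeing the data, it was 0.0494, so the call on the deleted gene turned on this setting. It also turned on single samples. With each sample left out, a fit added later, DESeq2 with default settings called Trpc1 only without Trpc1-/- replicate 2 (adjusted p = 0.0298), and the other 6 fits gave an adjusted p between 0.0601 and 0.623. In bulk tissue, fewer cells that express Trpc1 and less Trpc1 RNA per cell cannot be told apart.

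**Figure D2:**
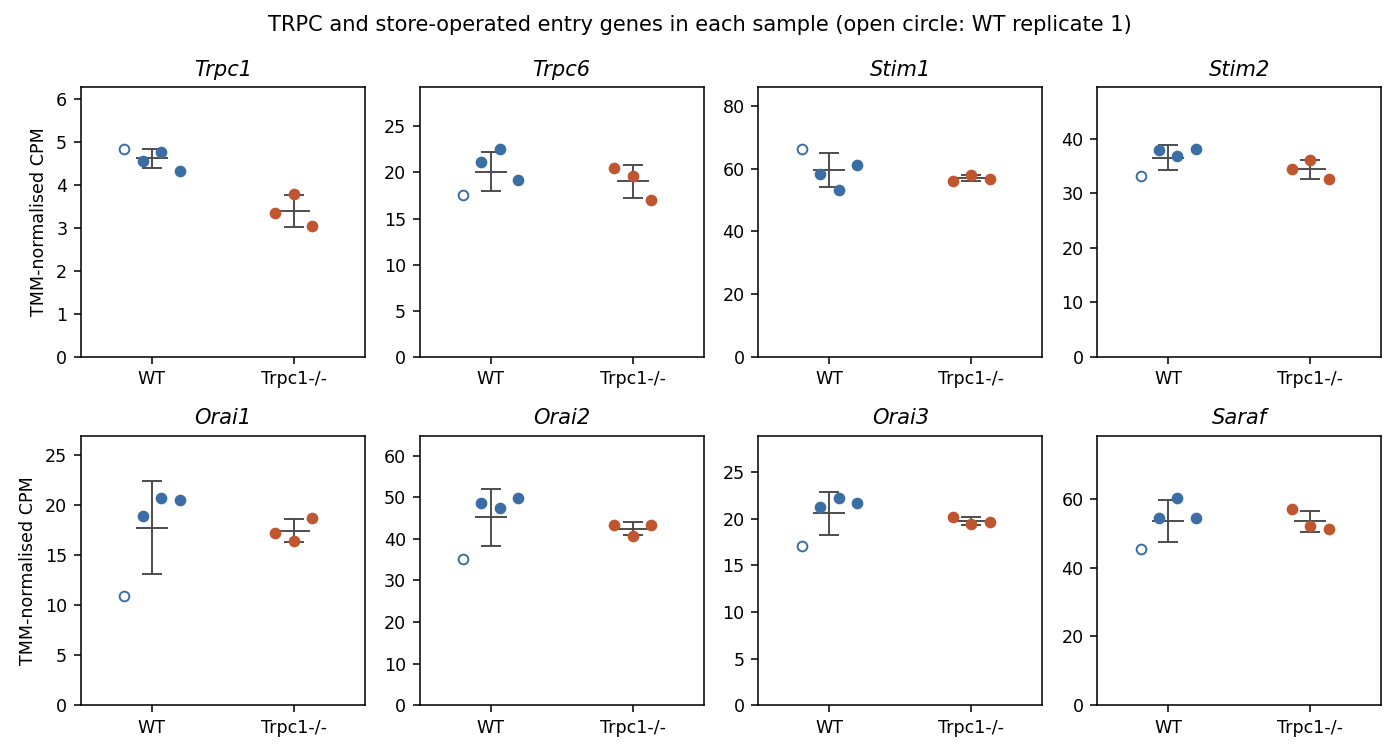
TMM-normalised CPM of the 8 genes in each sample, with bars for the mean and SD of each genotype (n = 4 WT, n = 3 Trpc1-/-) and WT replicate 1 as an open circle. The Trpc1 values separate by genotype, and WT replicate 1 is the lowest sample for Orai1, Orai2, Orai3 and Saraf.

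The Trpc1-/- sample with the highest Trpc1, replicate 2, also had the highest chondrocyte markers of its group. The 10 chondrocyte markers summed to 5822, 5926, 5946 and 5706 CPM in WT replicates 1 to 4 and to 3218, 6050 and 3443 CPM in Trpc1-/- replicates 1 to 3, with Col2a1 as the most abundant gene and none at 0 counts. All 10 had a lower mean in Trpc1-/- samples, and the summed values overlapped between the groups. Comp, a cartilage matrix protein, and Chad, which encodes chondroadherin, did not overlap, 2 of 10 against 6.42% of all tested genes, and DESeq2 called Chad alone (logFC −0.74 and adjusted p = 0.395 in edgeR, 0.00267 in DESeq2). The 8 erythroid markers summed to 12090, 20810, 23090 and 18830 CPM in WT and to 29420, 26510 and 36460 CPM in Trpc1-/- samples, with Hbb-bs as the most abundant gene, none at 0 counts and no overlap between the groups. Of these 8 genes, 7 did not overlap with Trpc1-/- higher, against 7.15% of all tested genes, and DESeq2 called 4, against 1.79%, and edgeR 0. The part of either list in the Trpc1 result was not tested.

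The 5 genes with values most like those of Trpc1 were P3h2, a collagen prolyl hydroxylase, Pthlh, which encodes parathyroid hormone-related protein, Adgra3, an adhesion G protein-coupled receptor, Col8a1, a collagen chain, and Podxl2, a sialomucin. Likeness was the root mean square difference in log2 CPM over 7 samples after each gene's WT mean was subtracted, and it was 0.0475, 0.0558, 0.056, 0.0585 and 0.0642, against a median of 0.37 over all tested genes. P3h2, the closest, was at 19.3, 18.9, 17.9 and 18 CPM in WT replicates 1 to 4 and at 13.5, 15.3 and 12.4 CPM in Trpc1-/- replicates 1 to 3. Like Trpc1, each of the 5 had no overlap between the groups, with Trpc1-/- lower, which the measure of likeness favours. DESeq2 called P3h2, Col8a1 and Podxl2 (adjusted p = 0.00626, 0.0354 and 0.0463), against 1.79% of all tested genes. As the 5 were chosen for values like those of Trpc1, the measure of likeness also favours these calls. The tool edgeR called 0 of the 5, with an adjusted p between 0.381 and 0.455.

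Trpc6, a channel opened by diacylglycerol and more abundant than Trpc1, was at 17.6, 21.1, 22.5 and 19.2 CPM in WT replicates 1 to 4 and at 20.5, 19.6 and 17 CPM in Trpc1-/- replicates 1 to 3. The lowest value of all was in a Trpc1-/- sample, the highest in a WT sample, and the groups overlapped. The logFC was −0.080 (95% interval −0.33 to 0.17, adjusted p = 0.792 in edgeR). A rise of Trpc6 above 1.13-fold thus lay outside the interval with all 7 samples, whereas alike levels were not shown. This bound, like those given below for other genes, applies to the mixed tissue, and levels per cell were not measured. With single samples left out, the logFC ranged from −0.14 without WT replicate 1 to −0.0017 without Trpc1-/- replicate 3. Of the 75-base stretches of Trpc6 transcripts, 2.8% occur in other genes, none of which is another of the 8 genes, and the lincRNA Gm32014 overlaps it on the opposite strand.

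Trpc4 had 0, 28, 35 and 19 counts in WT and 18, 17 and 8 counts in Trpc1-/- samples, Trpc5 had 3 counts in WT replicate 1 and 0 elsewhere, and Trpc2 and Trpc7 had 0 counts in all 7 samples. None of these genes exceeded 0.285 CPM in any sample, and the levels of Trpc2, Trpc5 and Trpc7 were not compared. Xntrpc and Xndc1 overlap Trpc2 on the same strand, so its 0 counts may also reflect how reads were assigned, which was not tested. For Trpc4 the logFC was −0.58 in edgeR without the filter (adjusted p = 0.852). Its groups overlapped through WT replicate 1 alone, and without it all Trpc1-/- values (0.147, 0.183 and 0.0818 CPM) were under the other WT values (0.265, 0.285 and 0.242 CPM), against 5.58% of 9727 genes below the filter with a mean of 3 or more counts per sample.

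Per length, Trpc6 was well above Trpc1 and Trpc4. On a scale of TMM CPM per kilobase of the union of exons, Trpc6 was at 3.97 ± 0.422 for WT (SD, n = 4) against 3.76 ± 0.368 for Trpc1-/- (SD, n = 3) and Trpc1 at 0.575 ± 0.0285 and 0.422 ± 0.0472. Of the summed level of Trpc1, Trpc4 and Trpc6, the share of Trpc1 was 14.7%, 11.9%, 11.7% and 12.4% in WT replicates 1 to 4 and 9.29%, 10.8% and 10.1% in Trpc1-/- replicates 1 to 3. The share of Trpc6 was 85.3%, 87.4%, 87.6% and 86.9% in WT and 90.3%, 88.7% and 89.6% in Trpc1-/- samples. The share of Trpc6 was thus higher in each Trpc1-/- sample while its own level was not, because the share of Trpc1 was lower. The summed level itself was 4.57 ± 0.438 for WT (SD, n = 4) against 4.2 ± 0.406 for Trpc1-/- (SD, n = 3), and the groups overlapped. The shares describe the samples and were not tested.

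**Figure D3:**
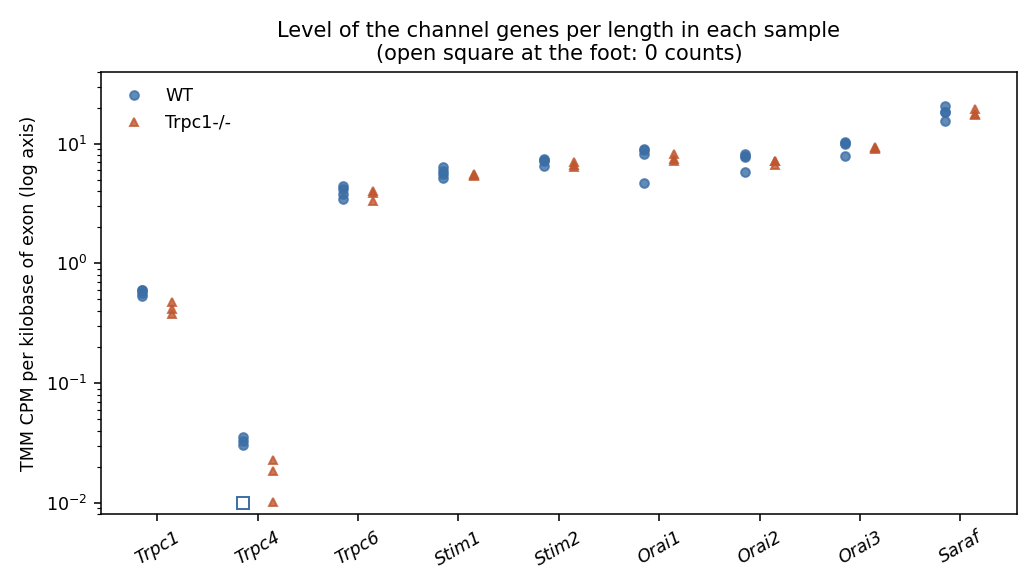
TMM CPM per kilobase of exon (log axis) of Trpc1, Trpc4, Trpc6 and the STIM, ORAI and SARAF genes in each WT (circles) and Trpc1-/- (triangles) sample. Trpc6 lies above Trpc1 and Trpc4, Saraf above all, and the open square marks the WT sample with 0 counts of Trpc4.

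The calcium sensors were next. Stim1, whose product opens ORAI channels and can gate TRPC1, was at 66.2, 58.2, 53.2 and 61.1 CPM in WT replicates 1 to 4 and at 56, 58 and 56.9 CPM in Trpc1-/- replicates 1 to 3. All Trpc1-/- values lay within the WT range, and the logFC was −0.066 (95% interval −0.26 to 0.13, adjusted p = 0.783 in edgeR). Stim2, which responds to smaller falls of ER calcium, was at 33.2, 37.9, 36.8 and 38 CPM in WT and at 34.4, 36 and 32.6 CPM in Trpc1-/- samples. The groups overlapped through WT replicate 1, the lowest WT sample, and the logFC was −0.087 (95% interval −0.26 to 0.08, adjusted p = 0.674 in edgeR). Without WT replicate 1 it was −0.13 for Stim2 (95% interval −0.27 to 0.0076, adjusted p = 0.319 in edgeR) and −0.014 for Stim1. Upper bounds of the intervals with all 7 samples were 1.1-fold for Stim1 and 1.06-fold for Stim2. The share of Stim1 in the STIM level per kilobase was 44.7% ± 3.44 for WT (SD, n = 4) against 45.1% ± 1.06 for Trpc1-/- (SD, n = 3), or 64.8% ± 3.11 and 65.3% ± 0.965 with the longest transcript as the length, so the balance of the sensors overlapped on either scale. Processed pseudogenes lie opposite Stim1 (Gm18255) and Stim2 (Gm15820), and the deposited counts come from stranded alignment.

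The ORAI genes encode the pore subunits of the calcium release-activated channel. Orai1 was at 10.9, 18.9, 20.7 and 20.5 CPM in WT replicates 1 to 4 and at 17.2, 16.4 and 18.7 CPM in Trpc1-/- replicates 1 to 3. WT replicate 1 was far below every other sample, the other WT samples were above every Trpc1-/- sample, and the groups overlapped only through WT replicate 1. The logFC was −0.025 with a 95% interval of −0.51 to 0.46 (adjusted p = 0.972 in edgeR), the widest of the 8 genes, so that a 1.38-fold rise lay within it. Without WT replicate 1 it was −0.20 (95% interval −0.36 to −0.038, adjusted p = 0.222 in edgeR). An antisense gene, Gm2479, overlaps Orai1.

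Orai2, which can form mixed channels with Orai1, was at 35.1, 48.5, 47.4 and 49.8 CPM in WT and at 43.3, 40.6 and 43.4 CPM in Trpc1-/- samples, and Orai3, a subunit found in mammals, was at 17.1, 21.2, 22.2 and 21.7 CPM in WT and at 20.2, 19.4 and 19.6 CPM in Trpc1-/- samples. In both genes WT replicate 1 was the lowest of all samples and the other 3 WT samples were the highest. The logFC was −0.090 for Orai2 (95% interval −0.38 to 0.20, adjusted p = 0.795 in edgeR) and −0.060 for Orai3 (95% interval −0.29 to 0.17, adjusted p = 0.835 in edgeR). Without WT replicate 1, these were −0.20 (95% interval −0.32 to −0.07, adjusted p = 0.16 in edgeR) and −0.14 (95% interval −0.26 to −0.02, adjusted p = 0.243 in edgeR). Summed per kilobase, the ORAI genes were at 18.5, 26.1, 27.2 and 27.3 in WT replicates 1 to 4 and at 24.1, 22.9 and 24.4 in Trpc1-/- replicates 1 to 3, with the Trpc1-/- samples between WT replicate 1 and the other WT samples. The shares of Orai1, Orai2 and Orai3 in that sum were 30.8%, 30.1% and 39.1% in WT and 32%, 29.3% and 38.7% in Trpc1-/- samples, and each of them overlapped between the groups.

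Summed neutrophil markers, like the summed ORAI genes, were lowest in WT replicate 1, which describes 1 sample. The summed erythroid markers were lowest there too, but were higher in every Trpc1-/- sample than in any WT sample. The ORAI sum of the Trpc1-/- samples was instead below that of WT replicates 2 to 4. The 8 neutrophil markers summed to 5233, 13130, 15090 and 16660 CPM in WT replicates 1 to 4 and to 15370, 12270 and 16160 CPM in Trpc1-/- replicates 1 to 3, with S100a9 as the most abundant gene and none at 0 counts. The 8 skeletal muscle markers summed to 1298, 248.2, 193.2 and 66.5 CPM in WT and to 387.8, 638.4 and 1088 CPM in Trpc1-/- samples, led by Myh4, again with none at 0 counts. WT replicate 1 was the lowest sample for the neutrophil list and the highest for the muscle list. Their part in the ORAI values was not tested.

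Saraf, the negative regulator, was at 45.4, 54.3, 60.2 and 54.5 CPM in WT replicates 1 to 4 and at 57, 52.2 and 51.2 CPM in Trpc1-/- replicates 1 to 3. The Trpc1-/- samples lay inside the WT range, and the logFC was −0.005 (95% interval −0.24 to 0.23, adjusted p = 0.989 in edgeR), or −0.078 without WT replicate 1. A microRNA gene, Mir6395, overlaps it on the opposite strand.

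**Figure D4:**
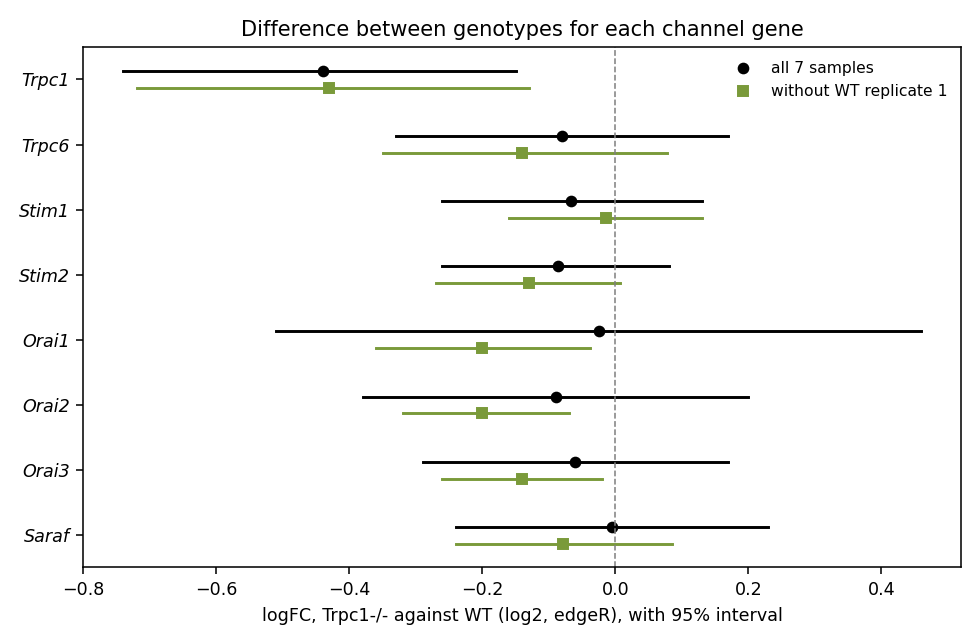
logFC with 95% interval in edgeR for the 8 genes, with all 7 samples (black circles) and without WT replicate 1 (green squares). Only the interval of Trpc1 excludes 0 with all samples, and those of Orai1, Orai2 and Orai3 do so as well without WT replicate 1, none with an adjusted p under 0.05.

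For 0 of the 8 genes did all Trpc1-/- values exceed all WT values, against 7.15% of all tested genes. All 8 had a logFC below 0 with all 7 samples, with a median of −0.073 against −0.009 over all tested genes, although the signs of Orai1, Orai2, Orai3 and Saraf turned under other settings. That of Saraf turned with DESeq2 and with its size factors in edgeR. Without WT replicate 1, edgeR called 49 of 16429 genes (0.298%) and 0 of the 8. In that comparison 5 of the 8 genes (Trpc1, Stim2, Orai1, Orai2 and Orai3) did not overlap with Trpc1-/- lower and 0 with Trpc1-/- higher, against 11.4% of all tested genes in each direction, and their adjusted p in edgeR lay between 0.16 for Orai2 and 0.319 for Stim2. When WT was limited to replicates 1 and 2, whose mouse numbers fall in the 1300s like those of all Trpc1-/- samples, the logFC was 0.23 for Orai1, 0.022 for Orai2, 0.042 for Orai3 and 0.10 for Saraf. The direction for these genes thus differed between these 2 choices of WT samples, of which the second keeps WT replicate 1. For the ORAI genes the positive values rest on that sample. WT replicate 2, at 18.9, 48.5 and 21.2 CPM for Orai1, Orai2 and Orai3, was above every Trpc1-/- sample. For Orai1 and Saraf the direction also turned when some of the other samples were left out. For Trpc1 the logFC of −0.44 became −0.43 without WT replicate 1.

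**Figure D5:**
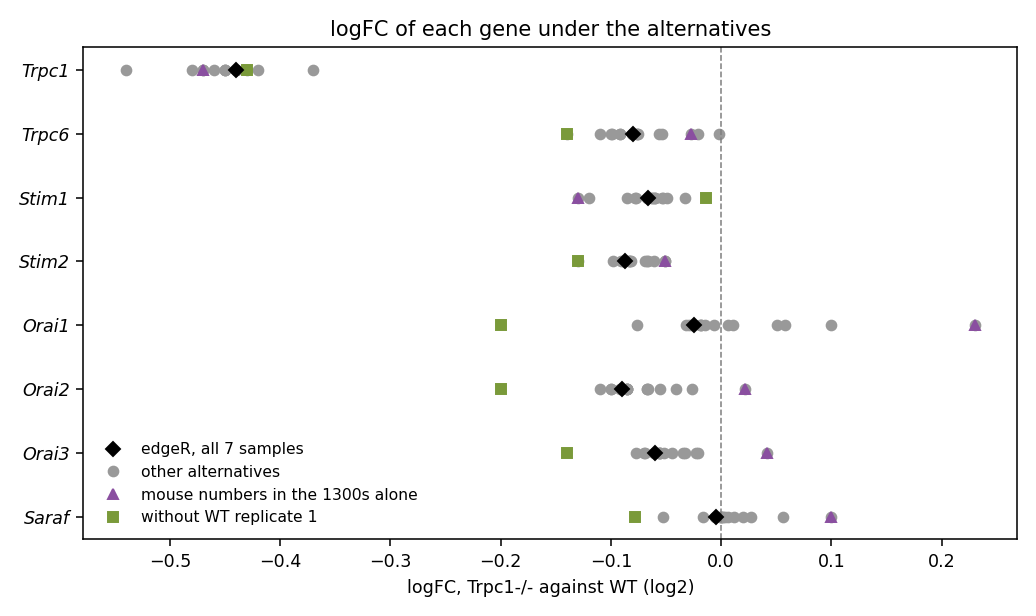
logFC of the 8 genes with all samples in edgeR (black diamonds) and under each alternative, with the fit without WT replicate 1 (green squares) and that on mouse numbers in the 1300s (purple triangles) marked. Trpc1 keeps to the range −0.54 to −0.37, whereas Orai1 spans −0.20 to 0.23.

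In WT, the order of levels per kilobase of exon was Saraf (18.3 ± 2.09, SD, n = 4), Orai3 (9.59 ± 1.1), Orai1 (7.72 ± 2.03), Orai2 (7.43 ± 1.12), Stim2 (7.1 ± 0.432), Stim1 (5.75 ± 0.524), Trpc6 (3.97 ± 0.422) and Trpc1. The values of neighbouring genes from Orai3 down to Stim2 overlapped between WT samples, whereas Saraf lay above and Stim1, Trpc6 and Trpc1 below their neighbours in every WT sample. Trpc1 was above only 8.35% of the 16415 tested genes with a length, Trpc6 above 49.4% and Saraf above 88.7%. The middle of the order depended on the length used, as Stim1 stood at 13.7 per kilobase of its longest transcript, behind Saraf alone, while Saraf, Trpc6 and Trpc1 kept their ranks. Trpc1-/- samples had 18.3 ± 1.06 for Saraf, 9.21 ± 0.191 for Orai3, 7.61 ± 0.504 for Orai1, 6.99 ± 0.262 for Orai2, 6.69 ± 0.326 for Stim2 and 5.5 ± 0.0986 for Stim1 (SD, n = 3), in the same order.

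Other genes of the pathway were read from lists of TRPC and other TRP channels, binding partners of STIM, ORAI and TRPC1, and genes of store release, refilling, calcium binding and calcium extrusion. Of the 74 genes, 51 passed the filter, and edgeR called 0 of them, with 7 lower and 0 higher in Trpc1-/- samples at an unadjusted p under 0.05, against 5.49% and 4.51% of all tested genes. DESeq2 called 1 gene lower and 0 higher, against 1.79% of all tested genes in either direction. Groups did not overlap for 5 of the 51 genes with Trpc1-/- lower, against 6.42% of all tested genes, and for 0 with Trpc1-/- higher, against 7.15%, and the median logFC was −0.051. WT replicate 1 was the highest of all samples for 9 of the 11 tested other TRP channels and 8 of the 11 tested store release genes. Without it the median logFC moved from −0.182 to −0.117 and from −0.172 to −0.0927 in these lists. That of the partners of STIM, ORAI and TRPC1 moved from −0.084 to −0.116. The gene DESeq2 called was Plcb3, a phospholipase C that produces the messenger opening the store, at 28.7, 27.7, 28.5 and 26.9 CPM in WT replicates 1 to 4 and at 23.9, 24.3 and 22.5 CPM in Trpc1-/- replicates 1 to 3. All 3 Trpc1-/- samples were lower, with a logFC of −0.25 (SE 0.06) and an adjusted p of 0.395 in edgeR and 0.0322 in DESeq2. When single samples were left out, DESeq2 called Plcb3 only without WT replicate 1 (adjusted p = 0.039).

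Among the 14 tested partners of STIM, ORAI and TRPC1, Stimate, an ER membrane protein that promotes STIM1 activation, was at 12.3, 12.2, 12.2 and 11.8 CPM in WT and at 9.74, 10.8 and 10.2 CPM in Trpc1-/- samples (logFC −0.24, adjusted p = 0.408 in edgeR and 0.0864 in DESeq2). Homer3, a scaffold protein, and Cracr2b, a regulator of ORAI channels, likewise did not overlap, with a logFC of −0.23 and −0.33 and an adjusted p of 0.479 and 0.508 in edgeR. Without WT replicate 1, its highest sample, the logFC of Cracr2b was −0.20. The mitochondrial calcium exchanger Slc8b1 was the non-overlapping gene among those tested in the extrusion list (logFC −0.22, adjusted p = 0.454 in edgeR). The summed chondrocyte markers given beside Trpc1 were below all WT samples in Trpc1-/- replicates 1 and 3 and above them in replicate 2, and their part in these values was not tested.

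The most abundant gene per length in each list had overlapping groups. Apart from Trpc4 these were Trpm7, a magnesium and calcium channel (logFC −0.028), Surf4, a binding partner of STIM1 (−0.12), Plcg2, a phospholipase C of blood cells (0.023), Atp2a3, a calcium pump of the ER (−0.072), Calr, the ER calcium buffer calreticulin (0.21), and Atp2b4, a calcium pump of the plasma membrane (0.002). The groups of Surf4 and Atp2a3, like those of Trpc4, overlapped through WT replicate 1 alone, with all Trpc1-/- values under the other WT values. Those of Atp2b4 also overlapped through that sample alone, but with all Trpc1-/- values above the other WT values. The nearest values of its 2 groups both rounded to 151 CPM. The adjusted p of these genes other than Trpc4 lay between 0.688 for Surf4 and 0.997 for Atp2b4 in edgeR. Without WT replicate 1 the logFC was −0.20 for Surf4, −0.14 for Atp2a3 and 0.20 for Atp2b4. Its sign turned for Plcg2 (−0.086) and Trpm7 (0.0067) in that fit, where edgeR called 0 of the pathway genes. All 5 tested ER calcium-binding genes had a positive logFC, against 48.1% of all tested genes, with a median of 0.214, and neither tool called any. WT replicate 1 was the lowest of all samples for 4 of them and the highest for the other, and without it the median was 0.067. Calr was at 184, 328, 363 and 327 CPM in WT replicates 1 to 4 and at 412, 308 and 326 CPM in Trpc1-/- replicates 1 to 3, and without WT replicate 1 the logFC was 0.037.

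Of the 23 pathway genes below the filter, 6 had 0 counts in all 7 samples and no group mean exceeded 0.774 CPM. In 4 of them, Trpv1, Mcoln3, Atp2c2 and Atp2b3, named after their values were seen, all Trpc1-/- values exceeded all WT values. These were 4 of the 16 with a mean of 3 or more counts over all 7 samples, which Atp2c2 and Atp2b3 reached through their Trpc1-/- samples, against 2.41% of all genes below the filter with such a mean. Trpv1 had 9, 30, 27 and 10 counts in WT and 43, 30 and 38 counts in Trpc1-/- samples. In edgeR without the filter, the smallest adjusted p of the 23 genes was 0.71, for Atp2b3.

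The remaining marker lists were read as a whole, and the groups overlapped in each. In several lists the overlap rested on a single WT sample. This was replicate 1 for adipocyte markers and replicate 3 for macrophage and B cell markers. It was replicate 4 for T cell, fibroblast and synovium, and smooth muscle and pericyte markers. In the endothelial list the overlap rested on Trpc1-/- replicate 2. Summed CPM in WT and Trpc1-/- samples was 1340 ± 287 and 1130 ± 229 for osteoblast and osteocyte markers, 1020 ± 314 and 955 ± 128 for osteoclast, 612 ± 157 and 635 ± 75.5 for megakaryocyte and platelet, and 744 ± 127 and 899 ± 70.6 for macrophage markers (SD, n = 4 and n = 3). It was 237 ± 21.8 and 275 ± 24.9 for B cell, 20.2 ± 5.11 and 24.3 ± 0.429 for T cell, 326 ± 10.2 and 303 ± 22.8 for endothelial, 170 ± 28.9 and 145 ± 2.41 for smooth muscle and pericyte, and 147 ± 26.8 and 205 ± 26.4 for adipocyte markers (SD, n = 4 and n = 3). Fibroblast and synovium markers summed to 6240, 5370, 4819 and 3013 CPM for WT replicates 1 to 4 and to 4213, 3819 and 3310 CPM for Trpc1-/- replicates 1 to 3. No marker had 0 counts in all samples. Of the 63 tested genes of these 10 lists, 8 did not overlap with Trpc1-/- higher, 4 of them B cell markers, and 5 with Trpc1-/- lower, against 7.15% and 6.42% of all tested genes. DESeq2 called 2, Sost, an osteocyte gene, lower (adjusted p = 0.0033) and Adipoq, which encodes adiponectin, higher (adjusted p = 0.0231), against 1.79% of all tested genes, and edgeR called 0.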

How the data were processed

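Total RNA of 7 pooled knee samples (4 WT, 3 Trpc1-/-) was depleted of ribosomal RNA and sequenced as stranded libraries. The authors trimmed reads with Cutadapt 2.5, aligned them to GRCm38 with HISAT2 2.1.0 and estimated coverage with StringTie 2.0.3, as the processing notes of the submitters and the methods state, and deposited estimated counts per gene, made from coverage by a StringTie script and not normalized. Rounding left these whole numbers unchanged. How multi-mapping reads were assigned is fixed in them.

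In R 4.3.3, genes above 1 CPM in 2 or more samples were tested together by edgeR 4.0.16 (TMM, quasi-likelihood test, genotype alone, Benjamini-Hochberg, threshold 0.05). SEs came from the F statistic and 95% intervals from the t quantile with the test's total degrees of freedom. Groups were called non-overlapping on TMM CPM. Exon lengths, positions and exon sequences came from GENCODE M21.

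Alternatives were DESeq2 1.42.0, limma-voom (limma 3.58.1), DESeq2 size factors or upper quartile in edgeR, other filters, the replicate block, mouse numbers (the 1300s alone, or 1300s against 1700s as a covariate), another length, library totals without TMM, and each sample left out, in edgeR and, added later, in DESeq2. The fits in edgeR, DESeq2 and limma-voom were tested on simulated data.

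The 8 genes, the pathway lists and the marker lists were chosen with earlier results of these data known. Named were the 8 genes; from each pathway list the gene highest per kilobase, every gene with an adjusted p under 0.05 in edgeR or DESeq2, and up to 3 non-overlapping genes with the smallest p; the 5 genes most like Trpc1; each marker list with its most abundant gene where its values stand beside a result; Acan, Col2a1 and Sox9; and, after their values were seen, Comp, Chad, Sost and Adipoq. A list member that is withheld is not reported here, and counts over the lists leave it out.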

Additional observations from a re-analysis of the deposited data

Results flagged for a closer look

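In the WT group, 53 quantities were examined for a sample whose gap to its nearest neighbour exceeded, as a part of the group's range, the critical value of Dixon's test for 4 samples, which chance passes in about 1 of 20 groups. The 10 that passed all singled out WT replicate 1. It was lowest for Orai2 at 35.1 CPM (nearest other WT sample 47.4 CPM), for Surf4 at 138 CPM (nearest 173 CPM) and for the ORAI genes summed per kilobase at 18.5 (nearest 26.1). It was also lowest for Trpc4 at 0 CPM (nearest 0.242 CPM) and for its share in the summed level of Trpc1, Trpc4 and Trpc6 at 0% (nearest 0.691%), and highest for the share of Orai3 in the ORAI level at 43.2% (nearest 38.1%). Sox9 was highest there at 25.7 CPM (nearest 15.2 CPM). Of the summed marker lists, those of skeletal muscle at 1300 CPM (nearest 248 CPM) and endothelial cells at 341 CPM (nearest 322 CPM) were highest there, and that of macrophages at 555 CPM (nearest 793 CPM) was lowest. These quantities overlap in the genes they use, so the flags are not independent of each other.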

How the results depend on the processing

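In 16 other settings and 1 chosen after seeing the data, edgeR, DESeq2 with default settings and limma-voom called 0 of the 8 genes, and the added setting, DESeq2's filtering at 0.05, called Trpc1 alone. The signs of Trpc1, Trpc6, Stim1 and Stim2 held in all 17, with a logFC between −0.54 and −0.37 for Trpc1. Over all genes, DESeq2 called 294, or 303 in the added setting, limma-voom 1, and edgeR between 0 and 49 with each sample left out, the 49 without WT replicate 1. Of the pathway genes, DESeq2 called 1. DESeq2 with each sample left out was also added after seeing the data. It called 890, 62, 134 and 283 genes without WT replicates 1 to 4 and 79, 367 and 37 without Trpc1-/- replicates 1 to 3. Of the 8 genes it called 1, Trpc1, without Trpc1-/- replicate 2 and 0 otherwise, and of the pathway genes 4 without WT replicate 1, 2 without Trpc1-/- replicate 2 and 0 otherwise. In the 17 settings, signs turned as follows, with no adjusted p under 0.05. All samples with mouse numbers in the 1700s are WT, so the 1300s alone and the covariate give the same logFC by design. These 2 of the 17 settings are thus 1 contrast, and it keeps WT replicate 1. In it the logFC was 0.23 for Orai1, 0.022 for Orai2, 0.042 for Orai3, 0.10 for Saraf, 0.023 for Atp2a3 and −0.17 for Atp2b4. Saraf was 2e-04 with DESeq2 under either filtering, 0.00068 with its size factors in edgeR and 0.02 without a filter, where Trpm7 was 0.0037. Atp2b4 was −0.0037 with limma-voom, −0.014 with upper quartile scaling and −8.7e-05 with the filter in 3 samples. With each sample left out, the logFC ranged from −0.20 to 0.058 for Orai1, −0.078 to 0.056 for Saraf, −0.057 to 0.0067 for Trpm7, −0.086 to 0.093 for Plcg2 and −0.098 to 0.20 for Atp2b4. With the replicate block on replicates 1 to 3, the logFC was 0.10 for Orai1 and 0.012 for Saraf, and 0 genes passed in edgeR (975 with an unadjusted p under 0.05). Same-numbered samples carry different mouse numbers, and their deviations correlated at −0.348, −0.205 and −0.0439 across genes. The other pairs of a WT and a Trpc1-/- sample ranged from −0.332 to 0.364, so no pairing by replicate number was seen. Levels per kilobase of the longest transcript moved by more than 1 SD, to 1.01 for Trpc1, 6.17 for Trpc6, 13.7 for Stim1, 11.3 for Orai2 and 22.8 for Saraf. The causes of these shifts were not tested. Trpc5, Trpc2 and Trpc7 did not exceed the floor of 3 counts in any sample, and Trpc4 had 0 counts in WT replicate 1.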
